A study of Mus musculus with 18 samples.

Results

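The genes that encode the subunits of the proteasome, with their regulators and assembly chaperones, were followed in ribosome-bound RNA of mouse Purkinje cells over 3 ages and 2 genotypes. Members were all genes whose symbol begins with Psma to Psmg followed by a number, read from probe sets with exactly 1 symbol, with the probe set of highest mean over the 18 libraries taken for each gene. The rule found 49 of 18194 genes with such a probe set. Of these, 47 are proteasome genes, and Psmc3ip and Psme3ip1 match by symbol alone, have no part in the particle and stayed out of every count. The 47 genes comprised 8 core alpha, 7 constitutive core beta, 4 inducible or tissue-specific core beta, 6 ATPase, 3 other base and 8 lid subunits, 4 activators or regulators and 7 assembly chaperones. A gene was tested where its probe set reached a log2 value of 4 in at least 3 libraries, which left 44 of the 47 among 10068 genes. The chosen probe sets of Psma8, Psmb8 and Psmb11 did not reach it and stayed between 2.34 and 3.29 in every library. A second probe set of Psmb8 reached that value in 2 libraries. Psme2 was read only by a probe set that it shares with Psme2b and is not a member under the rule.

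The proteasome degrades proteins tagged with ubiquitin. Its core particle is a barrel of stacked rings, with the alpha subunits forming the gate and the beta subunits carrying the proteolytic sites inside. A regulatory particle caps the barrel: its lid removes ubiquitin, and the ATPases of its base unfold the substrate and feed it into the core. In neurons this system sets the turnover of synaptic and cytosolic proteins. In cells exposed to interferon, some catalytic beta subunits are replaced by inducible counterparts to form the immunoproteasome.

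All mice carried a BAC transgene in which the L7/Pcp2 promoter, active in Purkinje cells, drives ribosomal protein L10a fused to EGFP, so that tagged ribosomes with their mRNA could be pulled down from dissected cerebella (TRAP). The CGG90 groups also carried the L7CGG90Fmr1 transgene, named for Fmr1 with 90 CGG repeats, and the wild-type groups did not. Both genotypes came from the same crosses and had a mixed C57B6 and FVB background in equal parts. Mice were 4, 8 or 12 weeks old, with 3 libraries in each of the 6 groups, and each library pooled 4 mice, 2 male and 2 female. Each library was read on 1 array, and the values are log2 signals that serve to compare libraries for 1 probe set, not 1 gene with another. The p-values below measure the spread between these pooled libraries.

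The Purkinje marker list had a mean of 11.5 to 12.1 in every library, with all 12 measured markers above a log2 value of 4. Lists of other cell types were also present, such as oligodendrocytes (8.04 to 11.1), granule cells (6.16 to 8.98) and microglia (3.42 to 6.54). Some facts bear on the age and genotype comparisons. Fmr1, the gene the transgene carries, read 7.10 and 6.03 in the libraries labelled CGG90 at 12 weeks, replicates 1 and 2, within the wild-type range of 5.60 to 8.53, while the other CGG90 libraries read 11.01 to 12.01. Each age also has its own number in the sample titles, of unstated meaning, and its effect cannot be separated from that of age. No immunoprecipitation date held both a library of 4 weeks and one of a later age. Comparisons with 4 weeks therefore cannot separate age from date. In ribosome-bound RNA from a whole tissue, fewer cells of a type and less RNA per cell cannot be told apart either.

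Promoters are shown for the members whose results are described first: Psmd6 and Psma5, of smallest p between 12 and 4 weeks, Psmb5, a catalytic subunit, and Psmb10, the one member that was higher at 12 than at 4 weeks at an unadjusted p below 0.05 with the genotypes averaged. Each line gives the 150 bases before the annotated start, read 5′ to 3′ on the gene's strand, from RefSeq on the GRCm38.p6 build. Capitals mark matches, on either strand, to CCGGAAG (the core bound by ETS factors), to TGACG (the core shared by ATF and CREB sites) or to TGACNNNGC (the core of the antioxidant response element, through which Nfe2l1 and Nfe2l2 act).
Psmd6, minus strand, chr14:14120946-14121095: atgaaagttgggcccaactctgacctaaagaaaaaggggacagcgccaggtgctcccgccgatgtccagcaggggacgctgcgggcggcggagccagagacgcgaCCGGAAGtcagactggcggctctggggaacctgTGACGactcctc
Psma5, plus strand, chr3:108256776-108256925: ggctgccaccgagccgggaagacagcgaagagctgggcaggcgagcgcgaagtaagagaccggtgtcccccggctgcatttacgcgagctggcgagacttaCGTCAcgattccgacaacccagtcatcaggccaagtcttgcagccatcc
Psmb5, minus strand, chr14:54617996-54618145: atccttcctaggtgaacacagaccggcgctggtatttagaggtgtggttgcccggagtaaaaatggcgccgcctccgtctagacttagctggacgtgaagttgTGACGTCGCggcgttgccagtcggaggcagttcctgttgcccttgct
Psmb10, minus strand, chr8:105938393-105938542: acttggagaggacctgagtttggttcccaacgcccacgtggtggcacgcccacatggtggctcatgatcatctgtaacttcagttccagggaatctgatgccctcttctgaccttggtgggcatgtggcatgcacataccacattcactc
In Psmb5 the TGACNNNGC match contains a TGACG match, and the Psmb10 stretch holds no match to any of the 3.

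RefSeq windows were given for 39 of the 47 genes, with 41 windows in all, and 15 motifs were searched on both strands in the 250 bases before the start. CCGGAAG was in 31.7% of the members' windows and in 6.91% of all 32851 windows, among them those of Psma6, Psmc1, Psmc2, Psmc6, Psmd2, Psmd4, Psmd6, Psmd11, Psmd12, Psme3, Psme4 and Psmg1. TGACG was in 36.6% against 17.8%, and TGACNNNGC, which overlaps it where the fifth base is G, in 12.2% against 10.2% (Psmb5, Psmb6, Psmc6, Psmd9 and Psmd12). CCAAT was in 34.1% against 33.8% and TATAAA in 9.76% against 12.4%. The core of interferon-stimulated response elements, a pair of GAAA with 2 bases between, was in 7.32% against 2.98%, and TTCNNNGAA, the core bound by STAT factors, in 4.88% against 7.02%. CGCGAGA was in 7.32% against 2.10%, its palindromic extension, TCTCG followed by CGAGA, in 2.44% against 0.390%, GAACCGG in 4.88% against 2.09% and TGACTCA in 2.44% against 4.46%. TGACGTCA (1.55% of all windows), an NF-kappaB consensus, GGGAC followed by TTTCC (0.140%), GCCATNTTG (1.33%) and AAGATGGCG (0.606%) were in none of the members' windows. These are matches of letters in windows that differ in base composition and say nothing of binding.

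The members' level was lower at 12 than at 4 weeks. Of the 44 tested genes 39 had a negative difference averaged over genotypes, against 60.2% of all genes, and the median difference was −0.48 (log2) against −0.12 over all genes tested. Limma called 0 members at an adjusted p below 0.05 (0.0199% of all genes were called). At an unadjusted p below 0.05, 27 members (61.4%) were lower, against 10.3% of all genes, and 1 was higher, against 4.36%. All genes are an unlike background for these shares and those below. Their median log2 level was 7.63 against 10.38 for the members, and their median SD between replicates 0.59 against 0.35. The plot of values by library shows each tested gene.

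**Figure D1:**
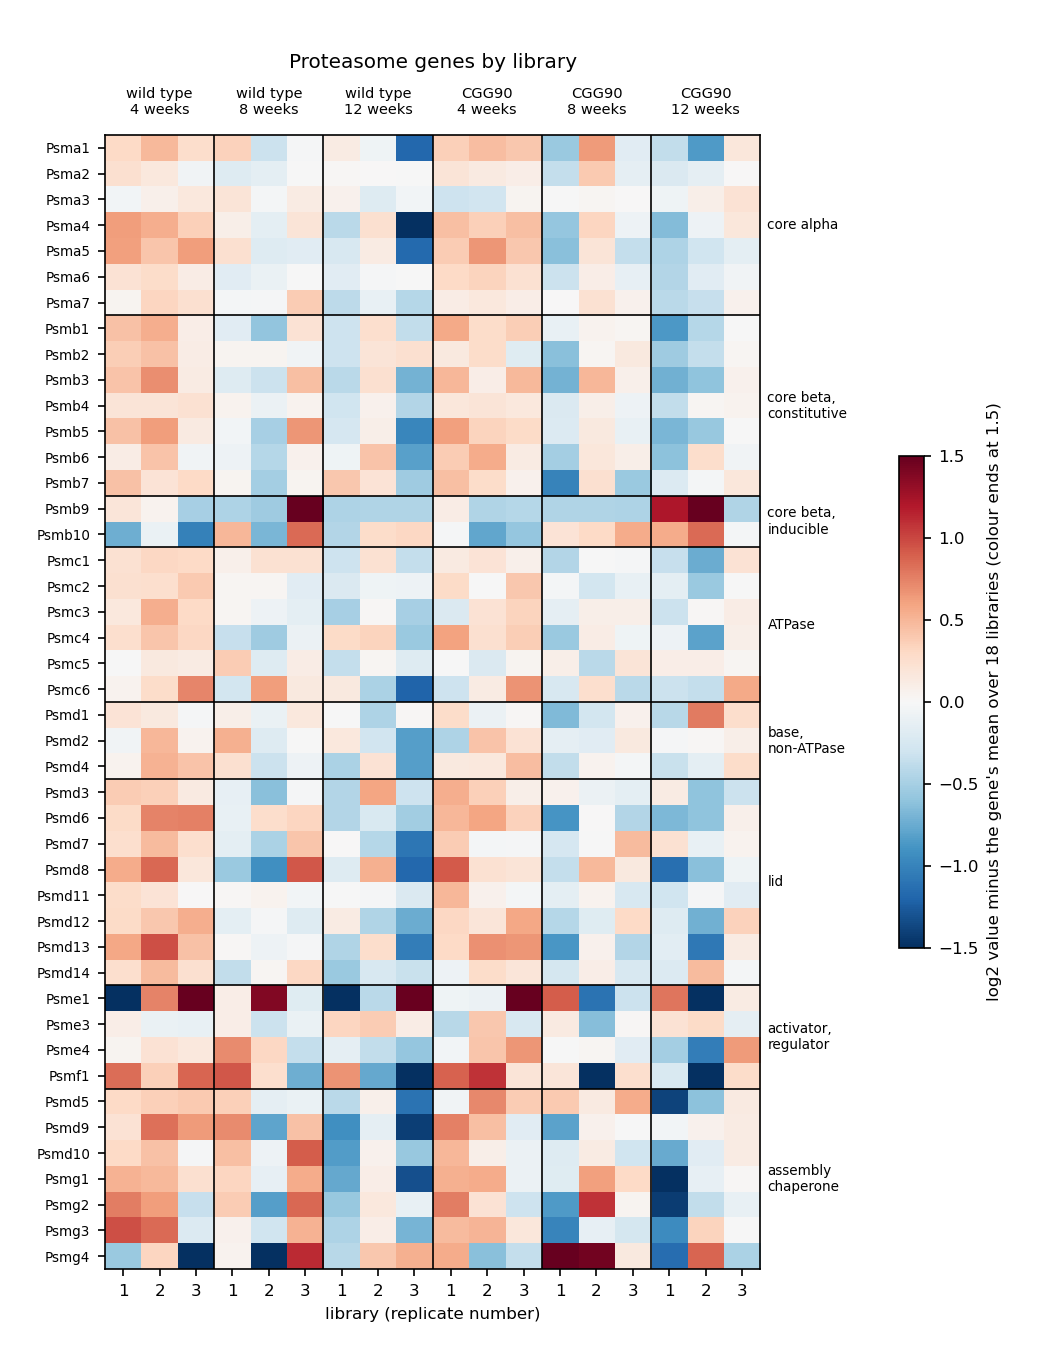
Heat map of the 44 tested proteasome genes (rows, by class) in 18 libraries (columns, by genotype, age and replicate); colour gives the log2 value minus the gene's mean over all libraries, with the scale ending at 1.5 in either direction. The median over genes was between 0.18 and 0.41 in the 6 libraries of 4 weeks and between −0.53 and 0.06 in those of 12 weeks; Psmb9 was near the floor except in 3 libraries, and Psmb10 was higher in 9 of the 12 later libraries than in every library of 4 weeks.

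The genotypes share no library, and each was compared over age on its own. Their libraries of 4 weeks were, however, prepared on the same immunoprecipitation dates, so the comparisons of the genotypes with 4 weeks are not independent of each other. The fit with the genotypes averaged counted those libraries as independent. Its SEs and p-values against 4 weeks leave the shared dates out of account. In wild-type mice 41 of 44 members were lower at 12 than at 4 weeks, with a median of −0.51 (all genes −0.13), and 16 at an unadjusted p below 0.05 against 6.26% of all genes, with 0 higher at that p against 2.58%. Of all genes 59.5% were lower. In CGG90 mice 38 were lower, with a median of −0.45 (all genes −0.10), and 10 at an unadjusted p below 0.05 against 5.38%, with 2 higher, Psmb9 and Psmb10, against 2.79%. The CGG90 libraries of 12 weeks include those of low Fmr1, without which the median was −0.22 and the difference of Psmb9 was −0.20 instead of 1.32. Of all genes 57.7% were lower. Limma called 0 members in either genotype (0% of all genes in both). All 3 libraries of 12 weeks lay below all 3 of 4 weeks for 20 members in wild type (9.83% of all genes) and for 15 in CGG90 (8.79% of all genes). This held in both genotypes for 10 members, Psma1, Psma4, Psma5, Psma6, Psma7, Psmb4, Psmb5, Psmc2, Psmd6 and Psmd13, or 22.7% of the tested members against 2.3% of all genes. The opposite arrangement was found for 0 members and 0.884% of all genes. The group means descended from 4 to 8 to 12 weeks for 28 members in wild type (25.4% of all genes), for 27 in CGG90 (21.4%) and for 18 in both (40.9% against 8.86%). The mean was lower at 12 than at 4 weeks in both genotypes for 37 members (84.1% against 41.1%).

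The lid, which removes ubiquitin chains, held the member of smallest p. Psmd6, a scaffold subunit of the lid, read 10.34, 10.79 and 10.81 in the wild-type libraries of 4 weeks and 10.55, 10.65 and 10.40 in the CGG90 libraries of 4 weeks. At 8 weeks it read 9.95, 10.32 and 10.37 in wild type and 9.16, 10.06 and 9.61 in CGG90. At 12 weeks it read 9.61, 9.83 and 9.53 in wild type and 9.38, 9.45 and 10.14 in CGG90. Every library of 12 weeks was below every library of 4 weeks, while the libraries of 8 weeks overlapped both. The difference between 12 and 4 weeks was −0.94 ± 0.19 (SE, 6 libraries an age), with an adjusted p = 0.129 by limma. With immunoprecipitation date as a random block it was −0.90, with a limma adjusted p = 0.1996. The largest lid difference was that of Psmd13, at −0.9995 ± 0.26 (adjusted p = 0.152). Its values ran from 9.07 to 9.73 at 4 weeks and from 7.70 to 9.02 at 12 weeks, again without overlap. Sem1, a small lid subunit whose symbol is outside the rule, was higher at 12 weeks. Its group means were 12.69 at 4 and 12.99 at 12 weeks in wild type, and 12.75 and 13.15 in CGG90. The 8 lid subunits under the rule were all lower, with a median of −0.56. The median was −0.30 with the Gapdh control, the difference between its 3′ and 5′ control probe sets, as a covariate. Psmd14, the deubiquitinating subunit, differed by −0.37 ± 0.17 (adjusted p = 0.331). Psmd8 varied most between replicates of this class (pooled SD 0.64), with a difference of −0.93 ± 0.35, and Psmd11 least (0.16), with −0.29 ± 0.14 (adjusted p = 0.364).

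In the alpha ring, 6 of 7 tested subunits were lower and the median was −0.43. Psma5 read 11.25, 11.05 and 11.27 in wild type and 11.02, 11.30 and 11.04 in CGG90 at 4 weeks. At 12 weeks it read 10.40, 10.76 and 9.47 in wild type and 10.17, 10.34 and 10.49 in CGG90. The ages did not overlap, and the lowest value, the third wild-type library of 12 weeks, stood well apart from the rest. The difference was −0.88 ± 0.22 (adjusted p = 0.141). Psma4 and Psma1 differed by −0.89 ± 0.29 and −0.74 ± 0.27, and that same library was lowest for both, at 8.39 and 8.65. Psma6 and Psma7 differed by less, −0.39 ± 0.14 and −0.43 ± 0.15, but also varied less between replicates. Psma2 differed by little more than its SE (−0.18 ± 0.15). Psma3, which had the smallest spread of the class (SD 0.13), differed by less than its SE (0.07 ± 0.13). The subunits of one ring thus had differences from −0.89 to 0.07.

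All 7 constitutive beta subunits were lower at 12 weeks, with a median of −0.40. With the Gapdh control as a covariate 5 were lower and the median was −0.19. Psmb5, which carries the chymotrypsin-like site, read 11.37, 11.55 and 11.07 in wild type and 11.55, 11.27 and 11.22 in CGG90 at 4 weeks. At 12 weeks it read 10.68, 11.03 and 9.96 in wild type and 10.25, 10.36 and 10.93 in CGG90, all below the values of 4 weeks. Its difference was −0.80 ± 0.23 (adjusted p = 0.162). The other catalytic subunits differed by less: Psmb6, with the caspase-like site, by −0.40 ± 0.23 (adjusted p = 0.443) and Psmb7, with the trypsin-like site, by −0.29 ± 0.23 (adjusted p = 0.586), and their ages overlapped. Among the subunits without a catalytic site, Psmb3 and Psmb1 differed by −0.74 ± 0.25 and −0.67 ± 0.20, and Psmb4 and Psmb2 by −0.35 ± 0.14 and −0.32 ± 0.18.

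The base was also mostly lower. All 6 ATPases were lower, and 5 of them lay between −0.42 and −0.53: Psmc2 at −0.44 ± 0.14 (adjusted p = 0.207), the least variable with a pooled SD of 0.17, then Psmc3, Psmc1, Psmc4 and Psmc6, the most variable with an SD of 0.49. Psmc5 differed by −0.06 ± 0.16. Of the base subunits without ATPase activity, Psmd4, a ubiquitin receptor, differed by −0.51 ± 0.20 (adjusted p = 0.259), Psmd2 by −0.26 ± 0.22 and Psmd1 by −0.06 ± 0.21. The last 2 are the scaffolds on which ubiquitin receptors and shuttles dock.

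Assembly chaperones, which build the particle and leave it, had a class median of −0.74, with 6 of 7 lower. With the Gapdh control as a covariate the median was −0.28, again with 6 lower. Psmg1, a chaperone of the alpha ring, differed by −0.99 ± 0.31 (adjusted p = 0.180). It read between 8.31 and 8.96 at 4 weeks and between 6.79 and 8.50 at 12 weeks, with 2 libraries of 12 weeks above the lowest of 4 weeks. Psmd5, a chaperone of the base, differed by −0.90 ± 0.26 and also overlapped. Psmg3 differed by −0.74 ± 0.28, Psmd9 by −0.84 ± 0.30, Psmd10 by −0.56 ± 0.23 and Psmg2 by −0.69 ± 0.39 (adjusted p = 0.421). Psmg4 was the most variable member of the class (SD 1.05, values 5.18 to 9.49) and differed by 0.35 ± 0.56.

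The regulators differed in both directions. Psmf1, an inhibitor of the core particle, had the largest difference of any member, −1.28 ± 0.48 (adjusted p = 0.242), but a pooled SD of 0.88. Psme4, an ATP-independent activator, differed by −0.58 ± 0.26, and Psme3, a nuclear activator, by 0.26 ± 0.19. Both of these and Psmf1 have further probe sets that differed in the other direction. Psme1, a subunit of the interferon-inducible activator, varied between 3.44 and 8.33 over the libraries (SD 1.56), and its difference was −0.81 ± 0.82. With the Gapdh control as a covariate it was −2.05 ± 0.77 (adjusted p = 0.401). Over all classes, 66 probe sets of the proteasome genes were usable and 59 of them were lower at 12 weeks. Of the 17 genes with several usable probe sets, 14 had them all in 1 direction.

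**Figure D2:**
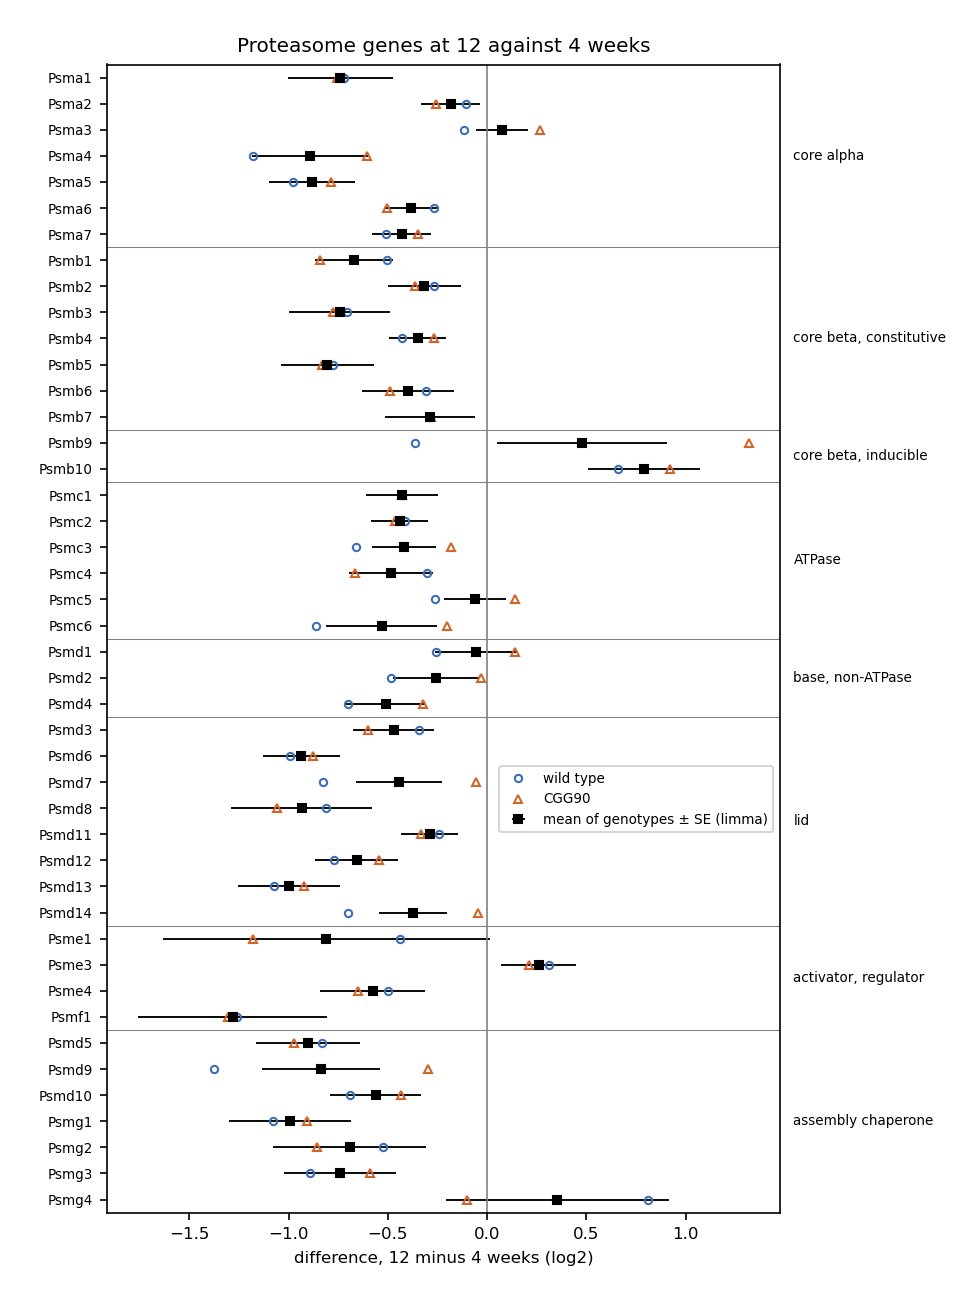
Difference between 12 and 4 weeks (x axis, log2) for each tested proteasome gene by class; black squares with bars are the mean of the genotypes with its SE from limma, blue circles wild type and orange triangles CGG90. Most squares lie left of 0, from Psmf1 at −1.28 to Psmb10 at 0.79, and 37 of the 44 genes are left of 0 in both genotypes.

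The inducible beta subunit Psmb10, the immunoproteasome counterpart of Psmb7, was higher at the later ages while its counterpart was not. It read 9.27, 9.91 and 9.00 in wild type and 9.99, 9.22 and 9.43 in CGG90 at 4 weeks. At 8 weeks it read 10.51, 9.32 and 10.86 in wild type and 10.22, 10.30 and 10.57 in CGG90, and at 12 weeks 9.56, 10.28 and 10.31 in wild type and 10.57, 10.86 and 9.98 in CGG90. The second wild-type library of 8 weeks, the first of 12 weeks and the third CGG90 library of 12 weeks lay within the range of 4 weeks, and the other 9 later libraries lay above it. The difference was 0.83 ± 0.28 between 8 and 4 weeks (adjusted p = 0.246) and 0.79 ± 0.28 between 12 and 4 weeks (adjusted p = 0.225). Psmb7 differed by −0.58 ± 0.23 and −0.29 ± 0.23 over the same intervals.

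The change of Psmb10 relative to Psmb7 within a library, a pair singled out after its values were seen and so given with no test, was 1.41 between 8 and 4 weeks. Between 12 and 4 weeks the change was 1.08, and between 12 and 8 weeks −0.33. It was 0.95 in wild type and 1.20 in CGG90 between 12 and 4 weeks. These changes of probe sets give no share of one protein in the particle.

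The other inducible subunits were low in most libraries. The chosen probe set of Psmb8, the counterpart of Psmb5, stayed between 2.58 and 3.29. Its second probe set read 4.89 and 3.42 in the CGG90 libraries of 12 weeks with low Fmr1, 4.05 in the third CGG90 library of 8 weeks and 2.26 to 2.91 in the others. Psmb9 passed the filter through 3 libraries, at 4.43 in the third wild-type library of 8 weeks and at 4.10 and 5.33 in the CGG90 libraries of 12 weeks with low Fmr1, and read at most 3.07 elsewhere. Its difference of 1.52 ± 0.61 between genotypes at 12 weeks (adjusted p = 0.894) rests on those libraries and was −0.0025 without them. Of 12 measured interferon response genes, 3 to 5 reached a log2 value of 4 in a library. H2-D1, H2-K1 and B2m read 7.067 or more in every library. Ifit3, Ifit1 and Tap2 read up to 5.54, 4.75 and 4.65. Irf1, Irf7, Irf8, Irf9, Nlrc5 and Tap1 stayed at or below 3.133. The list mean was 4.29 to 4.58 at 4 weeks. It was 4.40 to 4.84 at 8 weeks and 4.43 to 4.72 at 12 weeks. The microglia list mean was 5.43 and 5.45 in the CGG90 libraries with Psmb9 and 3.42, the lowest of all, in the wild-type one. Their part in the Psmb8, Psmb9 and Psmb10 values was not tested.

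**Figure D3:**
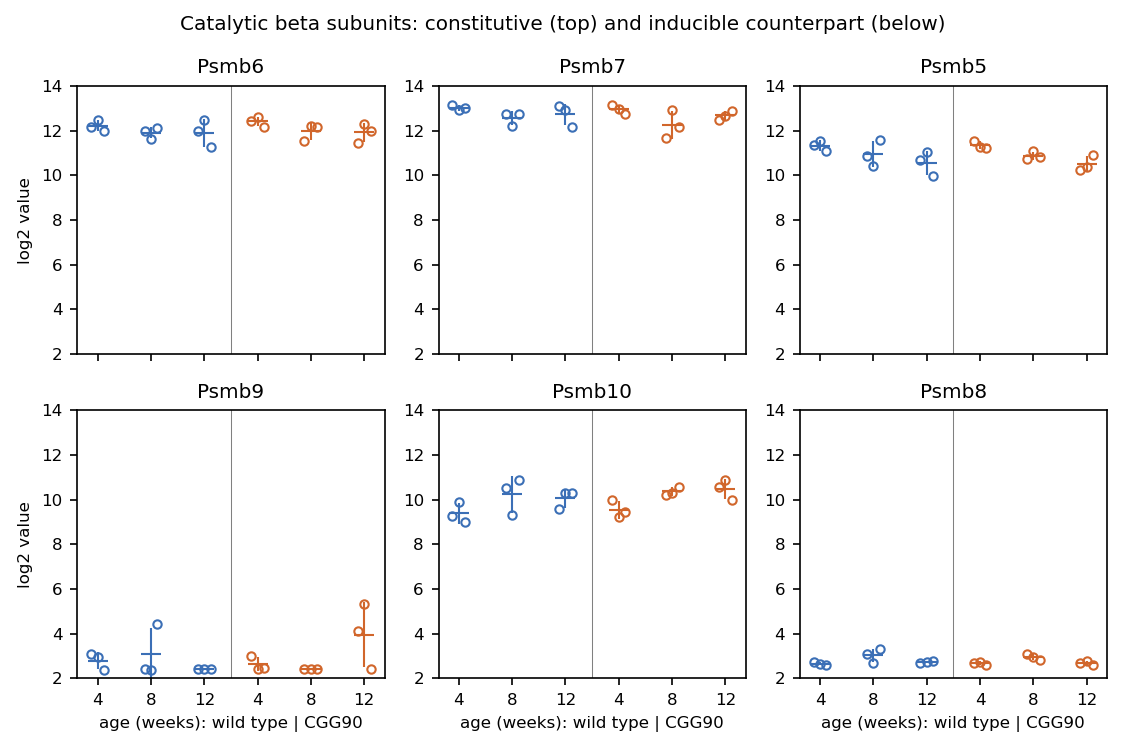
Log2 values of the constitutive catalytic subunits (top) and of the inducible counterpart of each (below) by age, wild type in blue and CGG90 in orange; circles are libraries, and bars give the group mean ± SD of 3 libraries. Psmb10 lies higher at 8 and 12 weeks than at 4 weeks, Psmb5 lower, and the plotted probe sets of Psmb8 and Psmb9 are near the array's floor except Psmb9 in 3 libraries.

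By interval, 39 members were lower at 8 than at 4 weeks (58.8% of all genes), with a median of −0.26 against −0.10 over all genes, and 11 of them at an unadjusted p below 0.05 (25.0% against 7.58%), while 1, Psmb10, was higher (5.36% of all genes). Limma called 0 members there (0.0497% of all genes). The smallest p values were those of Psmd6 (−0.68 ± 0.19, adjusted p = 0.183) and Psmd13 (−0.83 ± 0.26, adjusted p = 0.211), both of the lid. From 8 to 12 weeks 38 were lower (55.0% of all genes), with a median of −0.17 against −0.04, and 4 at an unadjusted p below 0.05 (9.09% against 3.84%) and 0 higher (2.81% of all genes), with 0 called (0.00993% of all genes). Of those 4, Psmg1 (−0.87 ± 0.31), Psmd5 (−0.76 ± 0.26) and Psmd10 (−0.51 ± 0.23) are chaperones and Psma7 (−0.38 ± 0.15) is an alpha subunit. All 7 chaperones were lower in this interval, with a median of −0.51, and their median from 4 to 8 weeks was −0.15. With the Gapdh control as a covariate the chaperone median was −0.40 from 8 to 12 weeks, with 6 lower, and 0.17 from 4 to 8 weeks, with 2 of 7 lower. The difference between the intervals was not tested. One immunoprecipitation date held both later ages, with 1 library of 8 and 3 of 12 weeks. On it the median was 0.06 with 16 of 44 members lower. Its libraries of 12 weeks included both CGG90 libraries of low Fmr1. Values over all genes on that date are not given here, so the count stands without a background.

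Control probe sets that serve as a guide to RNA quality differed between the ages, but those of Gapdh and Actb moved in opposite directions. The difference between the 3′ and the 5′ Gapdh control probe sets was 1.80 to 2.31 in the libraries of 4 weeks, 1.91 to 2.98 at 8 weeks and 2.02 to 3.26 at 12 weeks. The third wild-type library of 12 weeks had the highest value and the lowest members' median (3.26 and −0.53), and the first CGG90 library of 8 weeks came next for the control (2.98 and −0.26). The Actb control moved the other way, from −0.20 to 0.08 at 4 weeks to −0.91 to −0.09 at 12 weeks. With the Gapdh difference as a covariate, chosen after the data were seen, the members' median between 12 and 4 weeks was −0.28 (all genes −0.08), with 36 of 44 lower (56.9% of all genes) and 9 lower at an unadjusted p below 0.05 (6.67%). With the Actb difference it was −0.29 (all genes 0.0008), with 36 lower (49.95% of all genes) and 2 at that p (3.06%). Of the 12 libraries of 8 and 12 weeks, 5 had a Gapdh difference within the range of the 4-week libraries. Their members' medians, −0.17 to 0.09, were below those of the 6 libraries of 4 weeks, 0.18 to 0.41. These libraries were not matched on Actb, since 4 of the 5 lay outside its 4-week range.

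**Figure D4:**
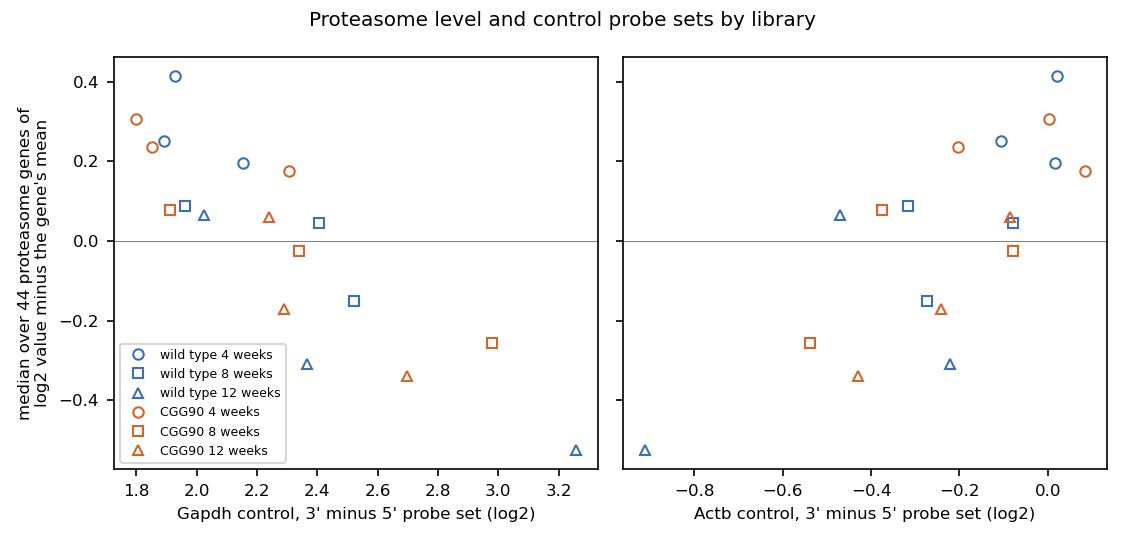
Median over the 44 tested proteasome genes of the log2 value minus the gene's mean (y axis) against the difference between the 3′ and 5′ control probe sets of Gapdh (left) and Actb (right, both log2), 1 point a library. The 6 libraries of 4 weeks are highest on the y axis at 0.18 to 0.41, and libraries of high Gapdh difference (2.98 and 3.26) are among the lowest.

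Leaving out the CGG90 libraries of low Fmr1 gave a median of −0.35 between 12 and 4 weeks with 40 of 44 members lower (54.5% of all genes), and 4 at an unadjusted p below 0.05 (2.52%). The oligodendrocyte list mean was 8.87 to 11.1 at 4 weeks and 9.16 to 9.65 at 12 weeks. With the mean of all markers of other cell types as a covariate the members' median was −0.51 and 29 members were lower at an unadjusted p below 0.05 (13.0% of all genes).

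No member was called between the genotypes at any age. The members' median difference of CGG90 from wild type was −0.07 at 4 weeks (all genes −0.01), with 30 members lower against 51.5% of all genes. It was −0.09 at 8 weeks (all genes −0.07), with 32 lower against 57.5%. It was 0.03 at 12 weeks (all genes 0.01), with 20 lower against 48.8%. Limma called 0 members at each age (0%, 0.00993% and 0% of all genes). At an unadjusted p below 0.05 there were 0 members at 4 weeks (0.298% of all genes lower, 0.189% higher), 1 lower and 0 higher at 8 weeks (2.49% and 1.22%), and 0 lower and 1 higher at 12 weeks (2.36% and 2.94%). The first was Psmd6, at −0.60 ± 0.28 (adjusted p = 0.9999), and the second was Psmb9. Averaged over ages the median was −0.01 with 27 members lower (54.1% of all genes) and 0 at an unadjusted p below 0.05 (1.18% of all genes lower, 0.914% higher).

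Few members separated the genotypes. Psmc1, an ATPase, read 12.50, 12.59 and 12.56 in wild type against 12.40, 12.48 and 12.34 in CGG90 at 4 weeks. At 8 weeks it read 12.35, 12.50 and 12.50 in wild type against 11.83, 12.26 and 12.25 in CGG90. All CGG90 libraries were lower at both ages, but the genotypes overlapped at 12 weeks. It was 1 member of 44 at each of those ages, where 2.46% and 4.57% of all genes had the genotypes apart in that direction, and 0 members were apart in the other (1.89% and 2.65%). Psmc5, Psmd9 and Psmd14 were higher in all 3 libraries labelled CGG90 at 12 weeks, of which 2 had Fmr1 within the wild-type range (3 members, 6.82% against 4.93% of all genes), and 0 members were lower in all (3.69%). Of them Psmd9 had the smallest p, at 0.87 ± 0.42 (adjusted p = 0.894). Wild type read 6.54, 7.33 and 6.05 there, and CGG90 7.41, 7.52 and 7.57, so the gap between the groups was narrow.

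By class the medians lay between −0.14 for the ATPases and 0.12 for the regulators at 4 weeks, and all 4 regulators were lower in CGG90 at 8 weeks (median −0.41). At 12 weeks the 3 base subunits without ATPase activity were each higher in CGG90, by 0.30 to 0.36, in a comparison that includes the libraries of low Fmr1. Without them the members' median at 12 weeks was 0.35, from 1 CGG90 library. Within single immunoprecipitation dates that held both genotypes the medians for 4-week mice were 0.03, −0.19 and 0.02. The single such date of 8 weeks gave −0.16. That of 12 weeks gave −0.13, and its CGG90 libraries were those of low Fmr1. A change of the genotype difference with age, by limma's F test, was called for 0 members (0.00993% of all genes), with 0 at an unadjusted p below 0.05 (2.85% of all genes). The smallest p was that of Psmb9.

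**Figure D5:**
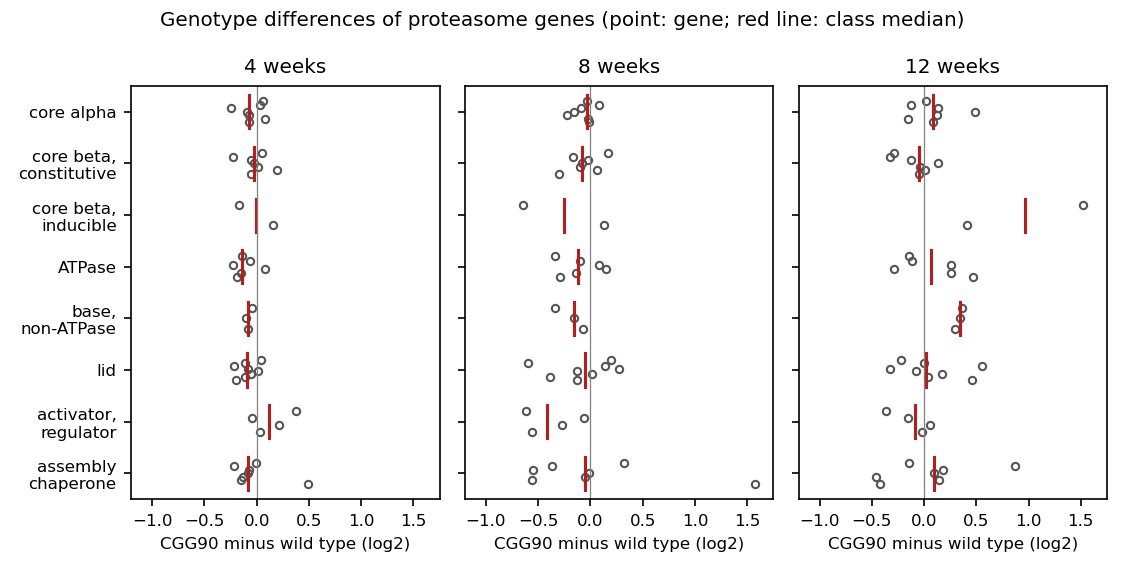
Difference of CGG90 from wild type (x axis, log2) at 4, 8 and 12 weeks for the tested proteasome genes by class; each circle is a gene and each red line a class median. Most genes lie near 0 at all ages, and the genes farthest to the right are Psmg4 at 8 weeks (1.58) and Psmb9 at 12 weeks (1.52).

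Other genes of the pathway were lower and higher with age in similar numbers. Of 34 listed genes for ubiquitin, shuttling, transcription and proteasome binding, 24 had a probe set under the same rule and 23 were tested. Between 12 and 4 weeks 13 were lower (60.2% of all genes) and 10 higher, with a median of −0.04, and limma called 0 (0.0199%). At an unadjusted p below 0.05, where 10.3% of all genes were lower and 4.36% higher, 3 were lower: Txnl1, a thioredoxin that binds the proteasome (−0.83 ± 0.21), Vcp, the segregase that extracts ubiquitinated proteins (−0.64 ± 0.25), and Ubqln1, a shuttle of ubiquitinated substrates (−0.51 ± 0.21). Both genes higher at that p were Stub1, a ubiquitin ligase that works with chaperones (0.39 ± 0.15), and Sem1, a small lid subunit whose symbol is outside the rule (0.35 ± 0.14). Pomp, the maturation factor of the core, differed by −0.04 ± 0.13, and Nfe2l1, a transcription factor known to activate proteasome genes, by 0.40 ± 0.22 (adjusted p = 0.422). The difference between these genes and the members was not tested.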

How the data were processed

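Ribosome-bound RNA of 18 libraries (6 groups of 3) was read on arrays, and the deposited values are log2 signals for each probe set, for which the submitters' processing notes name GCRMA. This method adjusts background by probe composition, normalizes arrays together and gives 1 value a probe set; its version and the arrays normalized together are not given in the sources used here, and the number of arrays limits the precision. Probe sets were named from the platform annotation: of 45101, 34958 had 1 symbol, 932 several and 9211 none listed, and the latter groups stayed out. Per gene the probe set of highest mean was kept, and genes at a log2 value of 4 or more in at least 3 libraries were tested.

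Group means were compared by limma (3.58.1, under R 4.3.3) in 1 fit of all libraries with moderated variances (residual degrees of freedom 12, prior 2.55, two-sided), with Benjamini-Hochberg adjustment over 10068 genes and a threshold of 0.05. Classes were described by counts and medians, with no test. The members and gene lists were chosen with earlier results of these data known. The plan was to name, in each comparison, members past the threshold or otherwise the 2 of smallest p in each direction. It also took the inducible subunits and their counterparts, the most and least variable member of each class and the untested members. The text leaves out some of these. Other members, such as Psmc1 for the separation of the genotypes, were named after their values were seen. Tested on simulated data for 12 against 4 weeks over 10068 genes, limma recovered 32% of 100 genes changed by 1 (log2) and 76% of 100 changed by 2, with 5 false calls among 9868.

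The Gapdh and Actb covariates, the comparison of Psmb10 with Psmb7 and the counts of members lower were chosen after the data were seen. Other alternatives were quantile normalization, centring, other filters, the mean of all probe sets of a gene, immunoprecipitation date as fixed or random block, the replicate number as a block, array weights, a trended robust prior, a marker covariate, only the groups compared, and each library left out. Correlations between libraries of the same replicate number in different genotypes were taken after removal of group means. At 4 weeks, where each pair shared a date, they were 0.02 to 0.61, and at 8 and 12 weeks -0.35 to -0.04. The numbers thus pair all libraries by date at 4 weeks but not at 8 and 12 weeks, and the main fit used no pairing.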

Additional observations from a re-analysis of the deposited data

How the results depend on the processing

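No member was called by limma in any comparison except under the following settings. Array weights called 3 members between 8 and 4 weeks (Psmb10, Psmd6 and Psmd13) and 1 between 12 and 4 weeks (Psmd6). A trended robust prior called 1 between 12 and 4 weeks (Psmd6, limma adjusted p = 0.0462). Leaving out the third CGG90 library of 12 weeks called Psmd6 in the same comparison (limma adjusted p = 0.0434). The shares of all genes called under these settings are not given here, so the counts stand without a background. Over all alternatives the adjusted p of Psmd6 ran up to 0.974. The median between 12 and 4 weeks was -0.56 to -0.40 with single libraries left out. It was -0.40 after quantile normalization and -0.39 after centring (all genes -0.03 under both). With the replicate block it was -0.48, with 25 members lower at an unadjusted p below 0.05 and 0 called. The all-gene shares with that block are not given here. The cause of the changes below was not tested.

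Between 12 and 4 weeks, members lower at an unadjusted p below 0.05 numbered 9 with the Gapdh covariate (6.67% of all genes). They numbered 2 with the Actb covariate (3.06%) and 4 without the libraries of low Fmr1 (2.52%). With single libraries left out they numbered 17 to 28, and the all-gene share there is not given here. Between 8 and 4 weeks they numbered 17 with array weights and 6 to 12 with single libraries left out, settings whose all-gene shares are not given here. With Gapdh they numbered 4 of 44 (7.82% of all genes) and with Actb 3 of 44 (3.97%). The main fit gave 11 of 44 (7.58% of all genes). The members' share was thus nearer to that of all genes with either control than in the main fit. Between 12 and 8 weeks the count was 0 with date as a fixed block and 2 with only the groups compared. It was 2 to 5 with single libraries left out. The all-gene shares under these settings are not given here. Without the libraries of low Fmr1 the count was 0 of 44 (1.16% of all genes). With date as a fixed block 24 members were lower between 12 and 8 weeks, again without an all-gene share. The block leaves comparisons with 4 weeks without an estimate.

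Medians moved as follows. Between 12 and 4 weeks the median was -0.28 with Gapdh and -0.29 with Actb, in wild type -0.33 and -0.25, and in CGG90 -0.24 with Gapdh and -0.22 without the libraries of low Fmr1. In CGG90 between 8 and 4 weeks it was -0.13 with Gapdh and -0.15 with Actb. Between 12 and 8 weeks it was -0.13 in wild type with date as a fixed block, -0.12 with Actb, and 0.12 in CGG90 without the libraries of low Fmr1. With single libraries left out it was -0.4781 to -0.1356 between 12 and 8 weeks in wild type and -0.5758 to -0.2631 between 12 and 4 weeks in CGG90. At 12 weeks the genotype median was 0.35 without those libraries and -0.12 to 0.17 with single libraries left out.

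Some single members changed sign. Psmg4 by genotype was -0.10 at 4 weeks with array weights, and with date as a fixed block -0.97 at 8 weeks and -0.0685 over ages. With single libraries left out it was -0.0271 to 0.9659 at 4 weeks, and Psmd10 in wild type between 8 and 4 weeks -0.0544 to 0.4372. Without the libraries of low Fmr1, Psmb9 was -0.0025 and Psmb1 0.14 by genotype at 12 weeks, and Psmb9 -0.20 in CGG90 between 12 and 4 weeks. The mean of all probe sets gave Psme3 -0.0122 between 12 and 8 weeks and -0.0034 between 12 and 4 weeks, and -0.0429 and -0.0297 in wild type. Between 12 and 4 weeks Psmb6 was 0.0288 and Psmb7 0.11 with Gapdh, and Psmb7 0.0422 with Actb.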

Other observations

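The probe set that carries the symbols of both Psme2 and Psme2b, the partner of Psme1 in the interferon-inducible activator, is outside the member rule and read 7.71 to 8.47 in the libraries of 4 weeks, 8.14 to 9.51 at 8 weeks and 7.81 to 8.62 at 12 weeks. Its highest values were 9.51 in the third wild-type library of 8 weeks, one of the 3 with Psmb9, and 9.40 in the first CGG90 library of 8 weeks. The genes that match the rule by symbol alone differed between 12 and 4 weeks by 0.07 ± 0.23 (Psmc3ip, a meiotic recombination factor) and -0.28 ± 0.18 (Psme3ip1, a binding partner of Psme3). The spread between replicates of a group was smaller for the proteasome genes than over all genes tested, with a median pooled SD of 0.35 against 0.59. Their median log2 level was also higher, at 10.38 against 7.63. Whether the smaller spread goes with the level was not tested.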
